A study of Mus musculus with 18 samples.

Results

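The transcripts described here are those of glycolysis and glycogen metabolism: glucose transporters and hexokinases, the enzymes from glucose 6-phosphate to lactate, the enzymes that set fructose 2,6-bisphosphate, fructose bisphosphatase, and the proteins that build and break down glycogen. The set is a fixed list of 35 mouse gene symbols, each matched to 1 Ensembl identifier among the 43430 genes of the count table. RNA-seq of polyA RNA was carried out on myofibers isolated from the quadriceps of young adult C57BL/6 mice (C57BL/6J in the study's methods), male and female, that received vehicle, weekly prednisone or daily prednisone, with 3 libraries from separate mice in each of the 6 groups. Prednisone is a synthetic glucocorticoid. It was injected intraperitoneally in the early morning for about a month, and mice on the weekly regimen received vehicle (DMSO in PBS) on the other days, so that all groups were injected equally often. All mice were wild type, and no group carried a transgene. The myofiber preparation was the fraction held back by a strainer after digestion with collagenase II, and other cell types can be held back with it.

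Glycolysis splits glucose into pyruvate and yields ATP without oxygen, and fast skeletal muscle fibers rely on it for short, forceful contractions. Glycogen is the glucose store of the fiber: glycogen phosphorylase releases glucose 1-phosphate from it when phosphorylase kinase is switched on by calcium or adrenaline, and glycogen synthase rebuilds it. Many steps have a muscle isoform and an isoform that is more common in other tissues, such as the phosphofructokinases encoded by Pfkm, Pfkl and Pfkp or the lactate dehydrogenase subunits encoded by Ldha and Ldhb. Glucocorticoids act through a nuclear receptor that binds DNA and changes transcription of metabolic genes in muscle, liver and fat.

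Each library held 10506661 to 14686654 counts, of which mitochondrial genes took 11.7% to 36.4% and the 35 members 3.48% to 6.05%. The summed level of 5 skeletal muscle genes was 48200 to 82400 CPM (read counts scaled to a common library size with edgeR's trimmed mean of M-values, TMM). Adipocyte markers were present too and differed between groups: the summed level of 10 adipocyte genes was 741 to 1460 CPM in male vehicle, 1210 to 2150 in male weekly and 1500 to 2860 in male daily libraries. In the female groups it was at 1680 to 1770 with vehicle, 1950 to 9420 with weekly and 2740 to 7140 with daily prednisone. All 10 were detected in every group, and Lep alone was at 0 in some libraries, all of them female vehicle. The slow myosin gene Myh7 reached 668 CPM in female weekly replicate 1 and 94.6 CPM in male weekly replicate 3, against 0 to 21.0 CPM in the other libraries. In bulk RNA, fewer fibers of a type and less RNA per fiber cannot be told apart.

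The 6 most abundant members were muscle isoforms. Per kilobase of exon, Aldoa, the muscle aldolase, had the highest mean level in the 6 vehicle libraries, at 6420 CPM per kilobase. Eno3, the muscle enolase, followed at 3410, Pygm, the muscle glycogen phosphorylase, at 2430, and Pgam2, the muscle phosphoglycerate mutase, at 2230. On this scale Pfkm stood at 1080 and Ldha at 966. The isoforms of other tissues lay lower, from 17.4 for Ldhb down, and the brain aldolase gene Aldoc was the lowest: it held 0 to 0.716 CPM over the 18 libraries and was the 1 member that did not pass the filter on low counts. The other 34 members were tested.

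**Figure D1:**
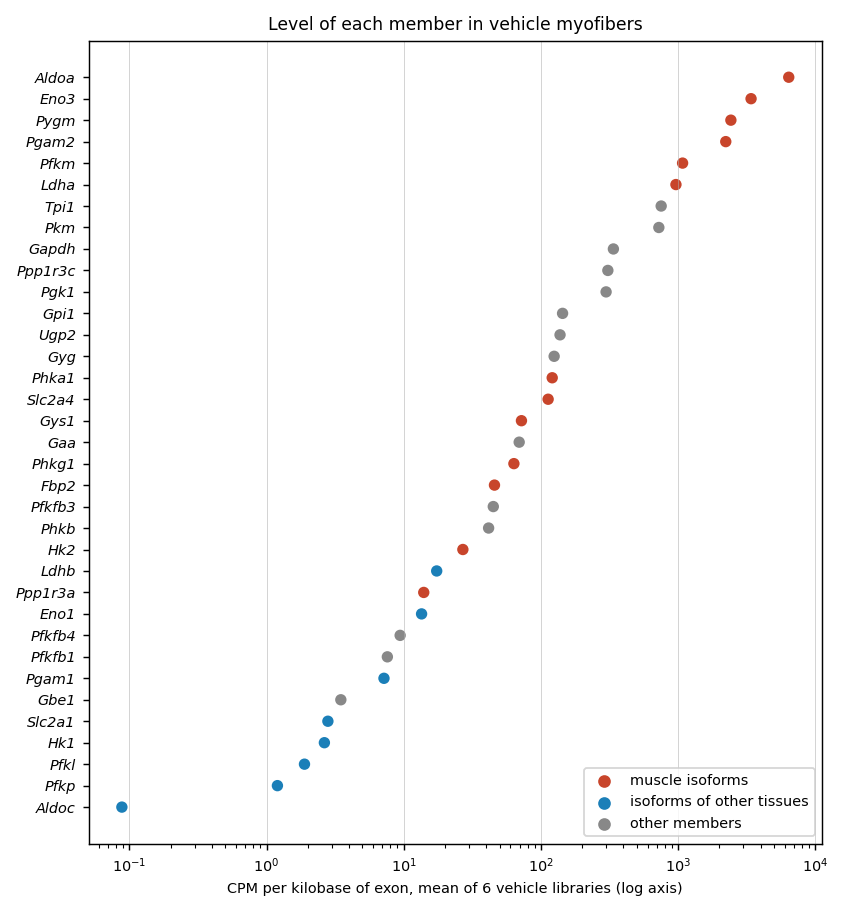
Mean level of each of the 35 members in the 6 vehicle libraries, in CPM per kilobase of exon on a log axis. Muscle isoforms are red, isoforms of other tissues blue and the remaining members grey; Aldoa is highest at 6420 and Aldoc lowest.

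The daily regimen was compared with vehicle within each sex and over both sexes, to ask which steps of sugar use differed after a month of daily steroid. In males, Pgam2 fell, and it was the 1 of 34 members that passed an adjusted p of 0.05 by the edgeR quasi-likelihood test, against 6.46% of the 13596 genes tested. In females no member passed, against 0.382% of all genes, with 7 of 34 (20.6%) at an unadjusted p under 0.05 by edgeR beside 17.3% of all genes, and 2, Hk2 and Ppp1r3a, called by DESeq2 among 530 genes. Averaged over the sexes, Pgam2 fell while Hk2 and Ppp1r3a rose, so that 3 of 34 passed against 15% of all genes. The members' median log2 difference was -0.09 in males and 0.00 in females, beside 0.05 and 0.01 over all genes. Leaving out 1 library moved them from -0.17 (without male daily replicate 3) to -0.04 (without male vehicle replicate 1) in males and from -0.11 to 0.11 (without female daily replicates 1 and 2, respectively) in females. These medians turned positive when libraries were scaled by total count alone, at 0.14 in males and 0.20 in females, a scaling that shifted the median of all genes to 0.29 and 0.21.

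Pgam2 encodes the muscle phosphoglycerate mutase, which moves the phosphate group late in glycolysis. Its level in male vehicle libraries was 2470, 1920 and 2020 CPM, in male weekly libraries 1610, 1880 and 1550 CPM, and in male daily libraries 1170, 1020 and 1220 CPM. Female libraries were at 1470, 1890 and 1460 CPM with vehicle, 1970, 1470 and 1160 CPM with weekly and 1480, 911 and 1040 CPM with daily prednisone. All 3 male daily libraries lay below all male vehicle libraries, whereas female daily replicate 1 lay among the female vehicle libraries. The log2 difference between daily and vehicle was -0.91 ± 0.21 (SE) in males (edgeR adjusted p = 0.0214) and -0.49 ± 0.21 in females (edgeR adjusted p = 0.243). Over both sexes it was -0.70 ± 0.15, or 0.615-fold (edgeR adjusted p = 0.00599), and the call held without any 1 of the 12 libraries. The male call held without male vehicle replicate 2 and was lost without each of the other 5 male libraries, with log2 differences of -0.97 to -0.78. Both calls ended with the adipocyte score as a covariate (-0.79, edgeR adjusted p = 0.127, in males and -0.56, edgeR adjusted p = 0.263, over both sexes). That score was at most 4.542 in male vehicle and at least 5.29 in male daily libraries. In females it was at most 4.751 with vehicle and at least 6.171 with daily prednisone. The score and daily treatment therefore cannot be told apart in this fit, here or for the members below. They also ended when each library's trend with transcript length and GC content was removed (-0.48, edgeR adjusted p = 0.228, and -0.32, edgeR adjusted p = 0.184). The exons of Pgam2 cover 840 bases, the shortest of the members.

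Hk2 encodes hexokinase 2, the insulin-responsive enzyme that traps glucose in the fiber as glucose 6-phosphate. It was at 216, 186 and 186 CPM in male vehicle, 170, 200 and 191 CPM in male weekly and 227, 176 and 242 CPM in male daily libraries. Among females the values were 128, 120 and 129 CPM with vehicle, 172, 105 and 123 CPM with weekly and 193, 189 and 201 CPM with daily prednisone. The female daily libraries lay above every female vehicle and weekly library, while the male groups overlapped. Over both sexes the log2 difference was 0.38 ± 0.12, or 1.3-fold (edgeR adjusted p = 0.037), with 0.63 ± 0.17 in females (edgeR adjusted p = 0.0831) and 0.13 ± 0.16 in males. The call was kept in 5 of the 12 fits without 1 library, at 0.35 to 0.44, and was lost without female daily replicates 2 or 3, female vehicle replicate 2, male daily replicates 1 or 3 or male vehicle replicates 2 or 3. It also ended with the replicate block (edgeR adjusted p = 0.0503), the adipocyte score (0.20, edgeR adjusted p = 0.625), the slow fiber score (0.31, edgeR adjusted p = 0.0734) and the length and GC correction (0.26, edgeR adjusted p = 0.355).

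Ppp1r3a encodes the muscle subunit that carries protein phosphatase 1 to glycogen, where it turns glycogen synthase on. It held 118, 122 and 84.4 CPM in male vehicle, 77.1, 113 and 116 CPM in male weekly and 123, 112 and 195 CPM in male daily libraries. Female libraries held 100, 75.1 and 87.0 CPM with vehicle, 114, 57.3 and 99.2 CPM with weekly and 149, 143 and 186 CPM with daily prednisone. The female daily libraries again lay above all other female libraries, and male daily replicate 3 stood above the other males. The log2 difference over both sexes was 0.64 ± 0.18, or 1.56-fold (edgeR adjusted p = 0.0267). It was kept in 8 of 12 fits without 1 library and was lost without female daily replicate 3, female vehicle replicate 2, male daily replicate 3 or male vehicle replicate 3, the lowest value being 0.51. The call ended with the adipocyte score (0.24, edgeR adjusted p = 0.692), the slow fiber score (0.51, edgeR adjusted p = 0.0571) and the length and GC correction (0.25, edgeR adjusted p = 0.438). The exons of Ppp1r3a cover 6965 bases and those of Hk2 5969 bases.

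The bases just upstream of these 3 genes are shown because they are the members that differed between daily prednisone and vehicle, and the glucocorticoid receptor is a DNA-binding factor. They are the 250 bases before the RefSeq start on the GRCm38.p6 assembly, at chr11:5803797-5804046 for Pgam2, chr6:82774455-82774704 for Hk2 and chr6:14755275-14755524 for Ppp1r3a, all on the minus strand. Capitals mark AGAACA, the half-site of the glucocorticoid response element, and CANNTG, the E-box read by myogenic factors, searched on both strands.
Pgam2: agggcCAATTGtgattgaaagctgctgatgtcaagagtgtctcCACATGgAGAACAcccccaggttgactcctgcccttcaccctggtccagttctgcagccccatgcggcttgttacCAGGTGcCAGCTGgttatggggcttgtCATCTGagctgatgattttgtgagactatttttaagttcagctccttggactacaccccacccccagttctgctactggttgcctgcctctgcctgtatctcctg
Hk2: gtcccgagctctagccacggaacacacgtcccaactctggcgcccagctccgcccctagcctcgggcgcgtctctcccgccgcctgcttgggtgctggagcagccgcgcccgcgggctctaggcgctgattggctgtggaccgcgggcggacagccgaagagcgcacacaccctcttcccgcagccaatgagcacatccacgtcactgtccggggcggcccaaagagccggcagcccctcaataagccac
Ppp1r3a: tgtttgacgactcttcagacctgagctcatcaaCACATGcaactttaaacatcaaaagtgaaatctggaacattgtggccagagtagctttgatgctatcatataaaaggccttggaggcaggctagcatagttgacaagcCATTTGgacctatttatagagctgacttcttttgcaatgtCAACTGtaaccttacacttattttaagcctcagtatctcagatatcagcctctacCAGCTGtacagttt
The Pgam2 window held 1 half-site, 200 bases before the start, and 5 E-boxes, the Ppp1r3a window held 4 E-boxes and no half-site, and the Hk2 window held neither. Of 32851 RefSeq promoters of the same length, 16.1% held AGAACA and 66.2% held CANNTG, and 9 and 36 of the 50 promoters of the members did. The full element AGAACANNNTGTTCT was in none of the members' promoters and in 0.00913% of all.

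Other glycolytic members had negative values in daily males without a call. From Gpi1, the isomerase that starts the shared path, to Ldha, which makes lactate, 9 members were separated downward, the called Pgam2 included. All 3 male daily libraries lay below all 3 male vehicle libraries for Gpi1, Aldoa, Tpi1, Gapdh, Pgk1, Pgam2, Eno3, Pkm and Ldha. Over all genes 17.1% were separated in that direction, and no member was separated upward, against 16.4% of all genes. Their log2 differences ran from -0.91 for Pgam2 to -0.29 ± 0.18 for Gpi1. In females 1 member, the hexokinase Hk1, was separated downward, against 10.2% of all genes. Upward, 6 were separated, against 12.9% of all genes: Hk2, Pfkfb1, Ldhb, Phkb, Gbe1 and Ppp1r3a.

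Eno3 is the muscle enolase, which makes phosphoenolpyruvate. It stood at 7090, 5770 and 5750 CPM in male vehicle, 4830, 5990 and 4900 CPM in male weekly and 4220, 4150 and 3910 CPM in male daily libraries. Female levels were 5640, 6610 and 4710 CPM with vehicle, 6020, 3800 and 4120 CPM with weekly and 6130, 3560 and 4400 CPM with daily prednisone. The male groups did not overlap between daily and vehicle, and the female groups did. The difference of -0.60 ± 0.22 in males did not pass (edgeR adjusted p = 0.111), nor did the -0.43 ± 0.15 over both sexes (edgeR adjusted p = 0.0694), although DESeq2 called both. Gapdh, the dehydrogenase often used as a reference transcript, differed by -0.48 ± 0.25 in males and -0.22 ± 0.25 in females, neither of which passed. Aldoa differed by -0.50 ± 0.23 and -0.22 ± 0.22, again without a call. Of 10 fast fiber transcripts, 6 (Pvalb, Tnnc2, Mylpf, Tnni2, Tnnt3 and Myl1) also fell with daily prednisone over both sexes by edgeR. Over all genes 15% were called in that comparison. Another 3 of the 10 had a positive value, up to 0.87 on the log2 scale, and none of the 10 was called upward. The part of the fast fiber transcripts in the values of the glycolytic members was not tested.

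**Figure D2:**
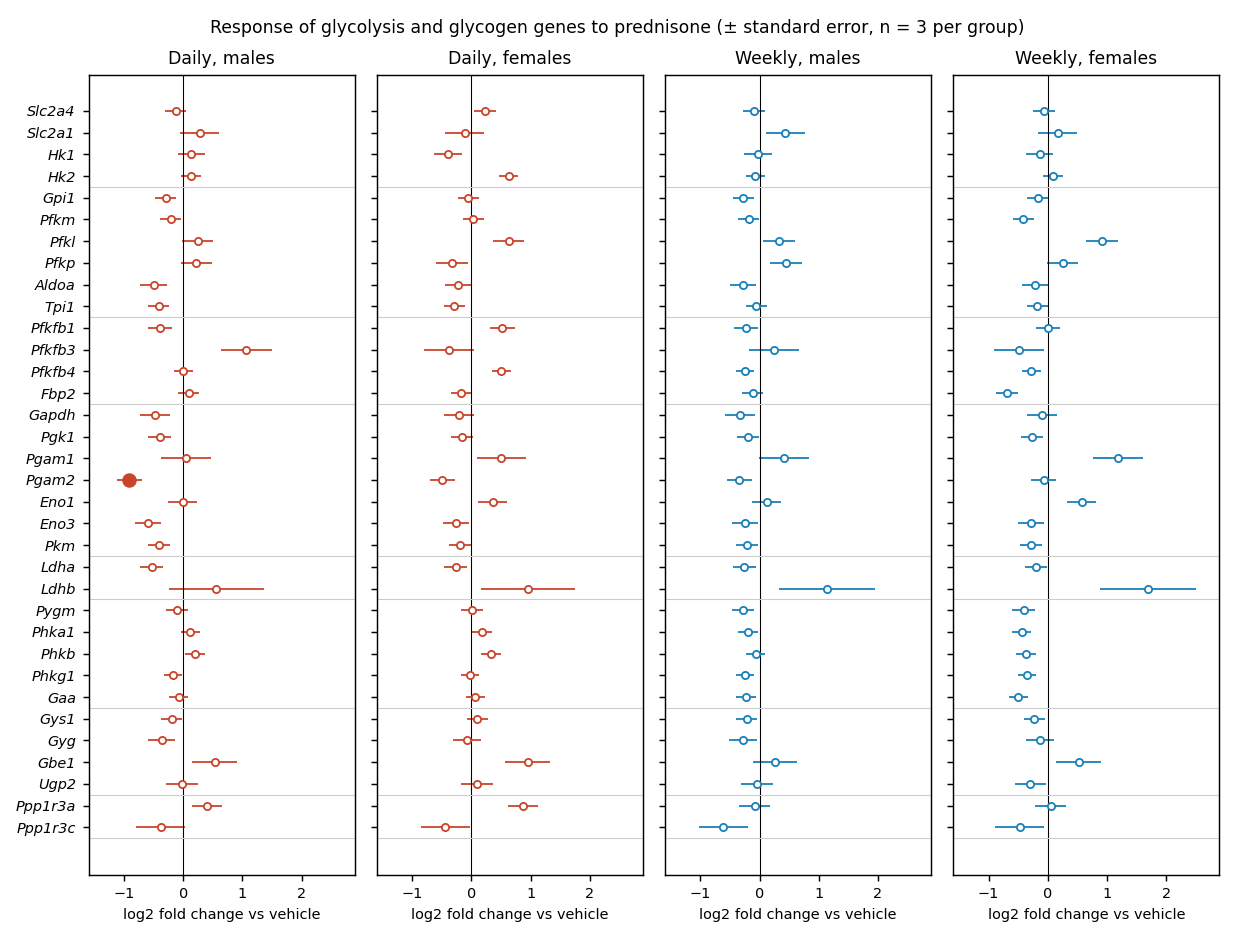
Log2 fold change against vehicle of the 34 tested members for each regimen and sex, with standard errors, ordered by role; the filled point passed an adjusted p of 0.05. Pgam2 in daily males is the single filled point, and in daily males the members of lower glycolysis lie to the left of 0 except Pgam1.

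Gbe1, the glycogen branching enzyme, had the largest positive difference with daily prednisone over both sexes after Ldhb. It was at 21.4, 20.8 and 15.8 CPM in male vehicle, 18.6, 23.7 and 27.2 CPM in male weekly and 28.6, 17.7 and 37.9 CPM in male daily libraries. In females the values were 22.8, 17.9 and 13.1 CPM with vehicle, 37.4, 10.4 and 29.1 CPM with weekly and 35.8, 25.5 and 42.7 CPM with daily prednisone. The female daily and vehicle groups did not overlap, the other groups did, and the log2 difference over both sexes of 0.74 ± 0.27 did not pass (edgeR adjusted p = 0.0729). None of the other genes of glycogen synthesis passed: glycogen synthase (Gys1) differed by -0.05 ± 0.12, glycogenin (Gyg) by -0.22 ± 0.17 and UDP-glucose pyrophosphorylase (Ugp2) by 0.04 ± 0.19 on the log2 scale. Muscle glycogen phosphorylase, Pygm, differed by -0.05 ± 0.13. Phkg1, the catalytic subunit of phosphorylase kinase, differed by -0.10 ± 0.11, and Gaa, the lysosomal enzyme that digests glycogen, by -0.01 ± 0.12, and none of these passed.

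**Figure D3:**
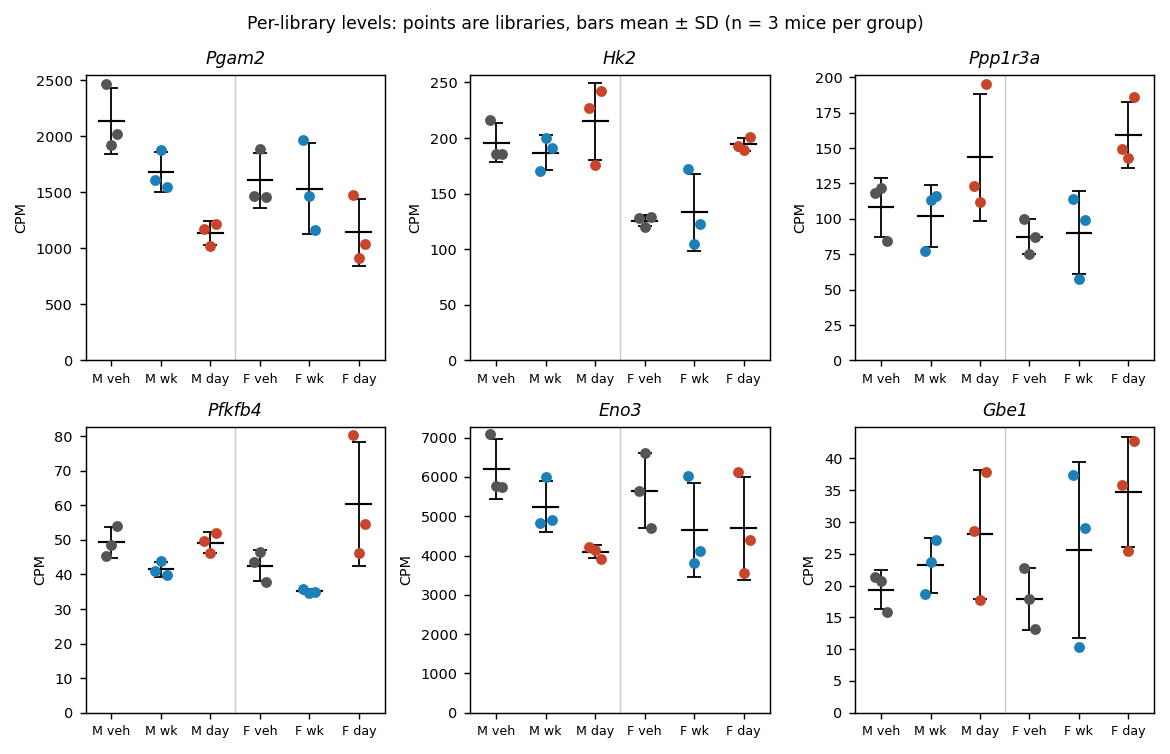
CPM of 6 members in each of the 18 libraries (points) with group means and SDs (bars, n = 3); M and F are male and female, veh, wk and day the regimens. In males every daily library lies below every vehicle library for Pgam2 and Eno3, and Hk2 and Ppp1r3a of daily females lie above all other females.

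The weekly regimen was compared with vehicle in the same way, using the same vehicle libraries as the daily comparison. No member passed in males, in females or over both sexes by edgeR, and 0% of all genes did in each of the 3 comparisons. At an unadjusted p under 0.05 there were 0, 10 and 10 of the 34 members, beside 5.71%, 7.97% and 11% of all genes. DESeq2 called 0, 1 and 0 members, the 1 being Fbp2 in females. Most members were nonetheless lower than vehicle in value: 26 of 34 in males and 25 of 34 in females had a negative log2 difference, with medians of -0.19 in each sex beside 0.01 over all genes. Without 1 library the medians ran from -0.24 (without male weekly replicate 2) to -0.10 (without male vehicle replicate 1) in males and from -0.38 (without female weekly replicate 1) to -0.09 (without female vehicle replicate 2) in females. With total count scaling the medians were -0.07 and -0.02, and those of all genes 0.13 and 0.16. Groups were fully separated downward for 5 members in males (Gpi1, Pfkfb1, Pfkfb4, Pgam2 and Ppp1r3c), against 8.97% of all genes, and for 4 in females (Pfkfb4, Fbp2, Phka1 and Gaa), against 3.13%. Upward, Pfkl and Pgam1 were separated in males and Pfkl in females, against 7.76% and 4.94% of all genes.

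Negative values were spread over most roles. All 13 muscle isoforms had a negative value in weekly males and 11 of 13 in weekly females. All 5 members of glycogen breakdown (Pygm, Phka1, Phkb, Phkg1 and Gaa) were negative in both sexes, with a median of -0.23 in males and -0.41 in females. In females each of the 5 had an unadjusted p under 0.05, from -0.50 ± 0.16 for Gaa to -0.35 ± 0.15 for Phkg1, and none passed adjustment. The isoforms of other tissues went the other way, with 6 of 7 tested positive in each sex. Of the 10 fast fiber transcripts 9 were negative in each sex, with medians of -0.33 and -0.37, and 7 had an unadjusted p under 0.05 over both sexes, none passing. In weekly females all 10 macrophage markers were positive, 6 at an unadjusted p under 0.05 and none passing, with a summed level of 95.6 to 121 CPM against 41.5 to 80.1 CPM in female vehicle libraries. The part of either list in the members' values was not tested. Without the 2 libraries highest in slow myosin, the median of the members in weekly females was -0.39 and still no member passed.

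Ppp1r3c, which carries protein phosphatase 1 to glycogen in muscle and liver, had a weekly difference over both sexes of -0.54 ± 0.29 (edgeR adjusted p = 0.507). It was at 1000, 1240 and 1010 CPM in male vehicle, 788, 856 and 481 CPM in male weekly and 1080, 728 and 699 CPM in male daily libraries. Females had 671, 901 and 216 CPM with vehicle, 510, 280 and 498 CPM with weekly and 573, 478 and 262 CPM with daily prednisone. The male weekly libraries lay below the male vehicle libraries, and female vehicle replicate 3 was the lowest of all 18. The muscle fructose bisphosphatase Fbp2, described further with the sexes, had a weekly difference of -0.40 ± 0.13 over both sexes (edgeR adjusted p = 0.252) and -0.69 ± 0.18 in females (edgeR adjusted p = 0.247).

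The regimens were then set directly against each other, as a difference of group means that leaves out the vehicle libraries. The scaling and the estimates of the spread still drew on all 18 libraries. Per the study's methods, each dose was the same per body weight, and the final weekly dose came days before sacrifice. Daily and weekly mice thus differed in total dose and in time since the last dose as well as in schedule. These cannot be told apart. Over both sexes 8.17% of all 13596 genes were called, 584 higher with daily than with weekly prednisone and 527 lower. Among the 34 members 4 were higher with daily and none lower. They were Pfkfb4, the 2 phosphorylase kinase subunits Phka1 and Phkb, and Ppp1r3a. All 5 members of glycogen breakdown had a positive value, with a median of 0.36 beside -0.02 over all genes. All 4 calls held with the replicate block and with the adipocyte or slow fiber score as a covariate, and all 4 ended with the length and GC correction, after which Fbp2 alone was called.

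Pfkfb4 makes and removes fructose 2,6-bisphosphate, the activator of phosphofructokinase. It was at 45.3, 48.4 and 54.1 CPM in male vehicle, 40.9, 43.9 and 39.7 CPM in male weekly and 49.7, 46.1 and 51.9 CPM in male daily libraries. Female levels were 43.5, 46.4 and 37.7 CPM with vehicle, 35.9, 34.5 and 35.0 CPM with weekly and 80.4, 46.1 and 54.7 CPM with daily prednisone. In both sexes every daily library lay above every weekly library, and the weekly libraries lay below every vehicle library. The log2 difference between daily and weekly was 0.51 ± 0.11, or 1.43-fold (edgeR adjusted p = 0.0144), and was kept in all 12 fits without 1 library, the lowest being 0.39 without female daily replicate 1. With the length and GC correction it was 0.54 (edgeR adjusted p = 0.0557).

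Phka1 and Phkb encode the muscle alpha subunit and the beta subunit of phosphorylase kinase, both regulatory. Phka1 was at 886, 930 and 760 CPM in male vehicle, 674, 861 and 718 CPM in male weekly and 945, 888 and 966 CPM in male daily libraries. In females it was at 636, 741 and 581 CPM with vehicle, 549, 461 and 432 CPM with weekly and 863, 593 and 759 CPM with daily prednisone. In each sex all daily libraries exceeded all weekly libraries, and the difference was 0.47 ± 0.12 on the log2 scale (edgeR adjusted p = 0.0247), kept in 10 of 12 fits and lost without female daily replicate 3 or male daily replicate 1. Phkb was at 396, 363 and 282 CPM in male vehicle, 298, 368 and 328 CPM in male weekly and 384, 393 and 421 CPM in male daily libraries. In the female groups it was at 275, 301 and 232 CPM with vehicle, 243, 166 and 216 CPM with weekly and 371, 312 and 331 CPM with daily prednisone. Daily and weekly did not overlap in either sex, and the difference was 0.48 ± 0.12 (edgeR adjusted p = 0.0214), kept in all 12 fits. With the length and GC correction the values were 0.32 for both genes (edgeR adjusted p = 0.317 and 0.276), whose exons cover 6259 and 7417 bases. The catalytic subunit gene Phkg1 differed by 0.20 ± 0.11 and Pygm by 0.30 ± 0.13, and neither passed.

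Ppp1r3a was 0.66 ± 0.18 higher with daily than with weekly prednisone on the log2 scale, or 1.57-fold (edgeR adjusted p = 0.0369). This call was kept in 7 of 12 fits and lost without female daily replicates 2 or 3, male daily replicate 3 or male weekly replicates 1 or 2. With the length and GC correction it was 0.41 (edgeR adjusted p = 0.256). Pgam2 differed by -0.50 ± 0.15 between the regimens and did not pass (edgeR adjusted p = 0.0522).

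Whether the sexes responded differently was tested as an interaction. No member passed for the daily or the weekly regimen by edgeR, and 0% of all genes did for either. DESeq2 called none of the members, and at an unadjusted p under 0.05 there were 4 of 34 members for daily and 1 for weekly, beside 4.69% and 2.63% of all genes. For daily, 28 of 34 members had a more positive response in females than in males, with a median of 0.26 on the log2 scale beside 0.03 over all genes. That median was 0.08 without female daily replicate 1 and 0.37 without female daily replicate 2. The largest in size was Pfkfb3, the inducible kinase that makes fructose 2,6-bisphosphate, with a female minus male difference of -1.45 ± 0.60 (edgeR adjusted p = 0.889). It was at 387, 158 and 120 CPM in male vehicle and 295, 488 and 609 CPM in male daily libraries, and at 329, 673 and 375 CPM in female vehicle and 309, 324 and 423 CPM in female daily libraries. Daily and vehicle overlapped in both sexes.

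The sexes were also compared with each other. Among vehicle mice 1 of 34 members passed, Fbp2, which was higher in females, against 0.765% of all genes. Averaged over the 3 treatments, a comparison made after the Fbp2 values had been seen, 5 of 34 members passed against 7.61% of all genes. In that comparison Fbp2 was higher in females and Hk2, Phka1, Phkb and Ppp1r3c were lower.

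Fbp2 encodes the muscle fructose 1,6-bisphosphatase, which runs the phosphofructokinase step backwards. Male vehicle libraries held 47.4, 34.0 and 47.5 CPM, male weekly libraries 34.6, 43.7 and 40.5 CPM, and male daily libraries 44.2, 50.2 and 43.0 CPM. Female libraries held 94.1, 108 and 73.8 CPM with vehicle, 52.8, 54.1 and 64.1 CPM with weekly and 99.8, 79.3 and 65.4 CPM with daily prednisone. All 9 female libraries lay above all 9 male libraries, and the female weekly libraries lay below the other females. The difference in vehicle mice was 1.10 ± 0.18 on the log2 scale, or 2.14-fold (edgeR adjusted p = 0.00523), and was called in all 6 fits without 1 library. Over the 3 treatments it was 0.82 ± 0.10, or 1.76-fold (edgeR adjusted p = 0.00011), called in all 18 such fits. Both calls held with the adipocyte score, with the slow fiber score, with the replicate block and with the length and GC correction. The 250 bases upstream of its RefSeq start, at chr13:62858401-62858650 on the minus strand of GRCm38.p6, are shown because it is the member that separated the sexes, with E-boxes in capitals.
Fbp2: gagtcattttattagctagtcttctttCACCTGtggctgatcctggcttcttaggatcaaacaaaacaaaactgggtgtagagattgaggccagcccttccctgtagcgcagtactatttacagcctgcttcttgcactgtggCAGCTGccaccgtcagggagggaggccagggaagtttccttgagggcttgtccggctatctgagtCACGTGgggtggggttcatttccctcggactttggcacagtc
The window held 3 E-boxes and no AGAACA.

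Hexokinase 2 and 3 regulators of glycogen metabolism were lower in females over the 3 treatments. Hk2 differed by -0.42 ± 0.10 (0.746-fold, edgeR adjusted p = 0.0119), Phka1 by -0.46 ± 0.10 (0.727-fold, edgeR adjusted p = 0.00732) and Phkb by -0.43 ± 0.10 (0.745-fold, edgeR adjusted p = 0.0119). Each of these was kept in all 18 fits without 1 library. Ppp1r3c differed by -0.84 ± 0.24 (0.559-fold, edgeR adjusted p = 0.0444), and this call was kept in 5 of 18 fits. It held without female vehicle replicate 2 or 3, female weekly replicate 1, female daily replicate 1 or male weekly replicate 3, ended without any other 1 library, and also ended with the adipocyte or slow fiber score and without the filter on low counts. With total count scaling, which set the median of all genes to 0.12, Fbp2 and Phka1 were the members called. The length and GC correction ended the call of Hk2 (-0.41, edgeR adjusted p = 0.0515) and kept the others.

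**Figure D4:**
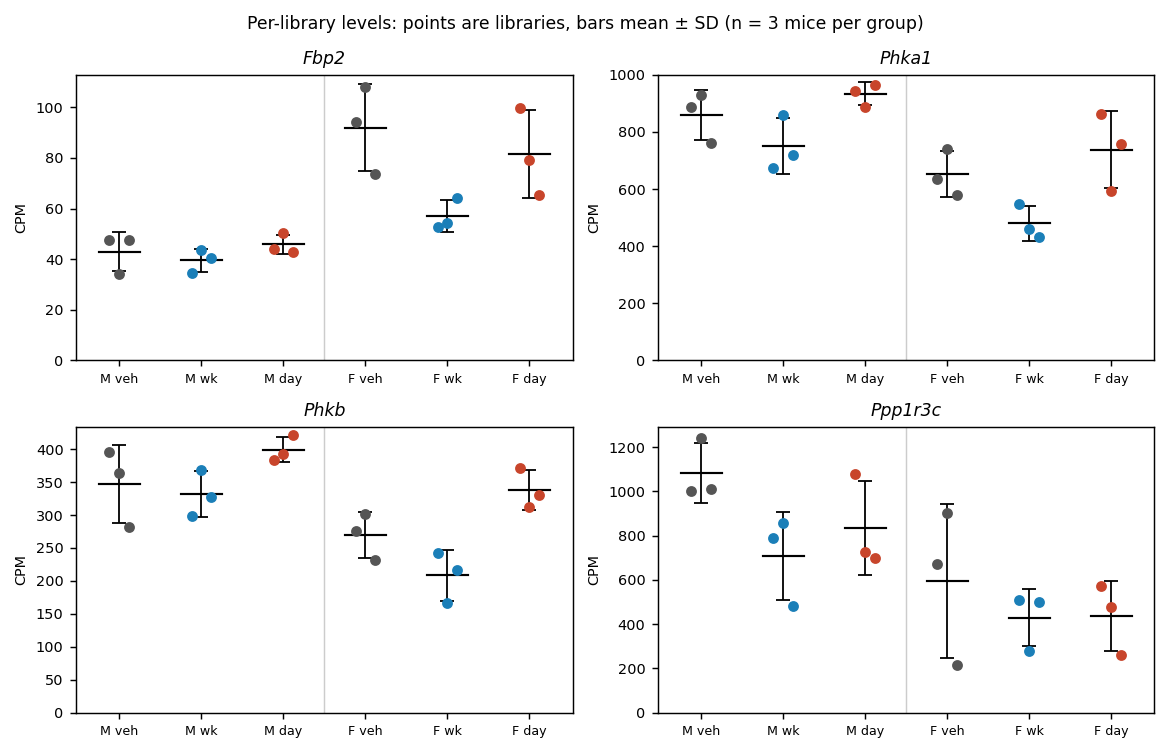
CPM of 4 members in each library (points) with group means and SDs (bars, n = 3), males to the left of the grey line and females to the right. Every female library exceeds every male library for Fbp2, and for Phka1 and Phkb every daily library exceeds every weekly library of the same sex.

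The isoform pairs were compared next, because the partner isoforms are known from other cells or from slow fibers. In this set the muscle form was far more abundant per kilobase than its partners in every group. Ldhb, the heart-type lactate dehydrogenase subunit that is abundant in slow fibers, varied most between libraries. It was at 9.92, 23.4 and 36.5 CPM in male vehicle, 30.8, 36.9 and 85.4 CPM in male weekly and 23.1, 11.4 and 68.8 CPM in male daily libraries. Female libraries were at 43.8, 14.6 and 35.8 CPM with vehicle, 223, 20.4 and 60.4 CPM with weekly and 55.1, 62.8 and 65.6 CPM with daily prednisone. The highest values were in female weekly replicate 1, male weekly replicate 3 and male daily replicate 3, the 3 libraries highest in Myh7, at 668, 94.6 and 21.0 CPM. The summed level of 10 slow fiber genes was 125 to 469 CPM in the vehicle groups, 285 to 4000 CPM in the weekly and 226 to 950 CPM in the daily groups, and none of the 10 was called for either regimen by edgeR; 8 of 10 in weekly females had an unadjusted p under 0.05. For Ldhb the log2 differences from vehicle over both sexes, 1.42 ± 0.57 for weekly and 0.76 ± 0.56 for daily, did not pass. Its partner Ldha, the muscle-type subunit, was at 3630, 3200 and 3080 CPM in male vehicle, 2560, 3120 and 2620 CPM in male weekly and 2480, 2290 and 2080 CPM in male daily libraries. In females Ldha was at 2920, 3590 and 2760 CPM with vehicle, 3260, 2400 and 2440 CPM with weekly and 3170, 1980 and 2550 CPM with daily prednisone. Its daily difference of -0.53 ± 0.19 in males did not pass by edgeR (adjusted p = 0.0998) and did by DESeq2.

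The phosphofructokinases commit sugar to glycolysis. Pfkm, the muscle form, was at 4430, 3900 and 3520 CPM in male vehicle, 3140, 3940 and 3330 CPM in male weekly and 3430, 3190 and 3600 CPM in male daily libraries. Among females the values were 3290, 3720 and 2860 CPM with vehicle, 3030, 2140 and 2260 CPM with weekly and 3920, 2830 and 3370 CPM with daily prednisone. All of its groups of different regimens overlapped. Pfkl, the liver form, was at 11.9, 11.6 and 12.2 CPM in male vehicle, 15, 14.3 and 15.5 CPM in male weekly and 16.5, 15.2 and 10.4 CPM in male daily libraries. Female Pfkl was at 11.8, 15.8 and 12.4 CPM with vehicle, 21.2, 18.2 and 35.8 CPM with weekly and 12.8, 21.3 and 27.3 CPM with daily prednisone. Weekly libraries exceeded vehicle libraries of the same sex throughout, with a log2 difference of 0.62 ± 0.19 over both sexes that did not pass (edgeR adjusted p = 0.231). Pfkp, the platelet form, was at 12.4, 14.7 and 19.7 CPM in male vehicle, 26.3, 19.6 and 17.8 CPM in male weekly and 18.8, 21.0 and 14.6 CPM in male daily libraries. Its female levels were 16.4, 14.5 and 18.4 CPM with vehicle, 12.5, 22.0 and 24.4 CPM with weekly and 8.60, 15.7 and 14.9 CPM with daily prednisone, and all regimens overlapped. Reads of Pfkp cannot be told apart from those of the overlapping gene Pitrm1 if strand was not used in counting.

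Pgam1, the phosphoglycerate mutase of most tissues, was at 11.4, 12.9 and 15.4 CPM in male vehicle, 16.4, 16.9 and 19.7 CPM in male weekly and 16.4, 13.6 and 10.8 CPM in male daily libraries. Females had 16.7, 14.5 and 14.6 CPM with vehicle, 29.1, 14 and 60.8 CPM with weekly and 11.1, 21.0 and 32.7 CPM with daily prednisone. Its 3 highest libraries were female weekly replicate 3, female daily replicate 3 and female weekly replicate 1, which also had the 3 highest levels of the fat hormone gene Adipoq, at 331, 203 and 183 CPM. Eno1, the enolase of most tissues, was at 73.0, 70.4 and 65.2 CPM in male vehicle, 76.3, 85.3 and 65.6 CPM in male weekly and 79.5, 71.2 and 56.4 CPM in male daily libraries. Its female levels were 73.5, 79.1 and 75.0 CPM with vehicle, 143, 70.9 and 126 CPM with weekly and 71.9, 80.3 and 140 CPM with daily prednisone. The 3 libraries highest in Eno1 were the same 3 as for Pgam1, and the regimens overlapped in both sexes. Part of the signal of Pgam1, Eno1, Aldoa, Gapdh and Ldha may be counted at near-identical processed copies, so small differences in these genes are uncertain.

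**Figure D5:**
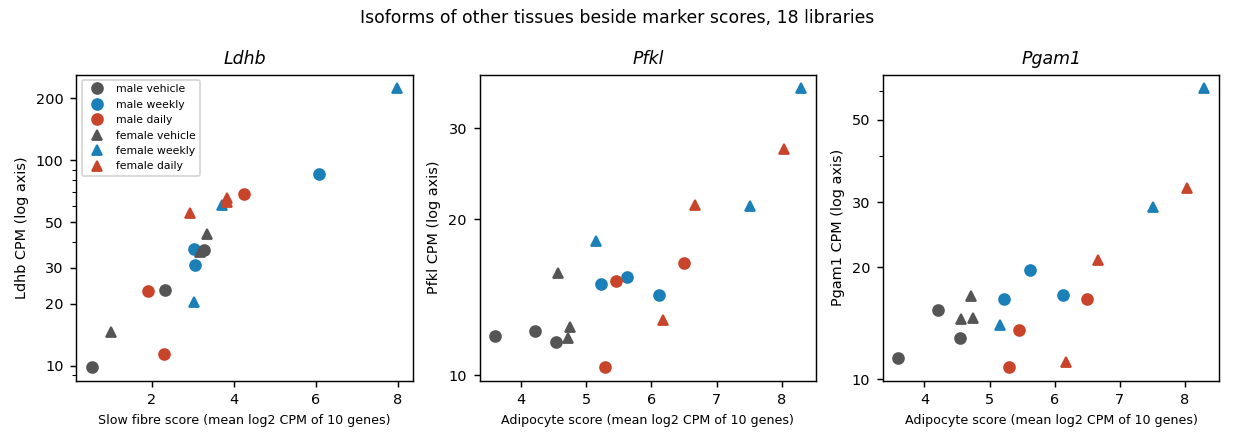
CPM of Ldhb against the slow fiber score, and of Pfkl and Pgam1 against the adipocyte score, in 18 libraries (circles male, triangles female, colors by regimen, log vertical axes); a score is the mean log2 CPM of 10 marker genes. Female weekly replicate 1 is highest in Ldhb at 223 CPM and female weekly replicate 3 in Pgam1 at 60.8 CPM.

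At the entry step no member but Hk2 was called. Slc2a4, the insulin-responsive transporter GLUT4, was at 452, 434 and 398 CPM in male vehicle, 370, 434 and 396 CPM in male weekly and 387, 355 and 435 CPM in male daily libraries. In females it was at 363, 393 and 314 CPM with vehicle, 460, 263 and 301 CPM with weekly and 471, 366 and 417 CPM with daily prednisone. Groups of different regimens overlapped in both sexes, and female vehicle lay below male vehicle. Slc2a1, the basal transporter GLUT1, was at 7.29, 7.75 and 11.7 CPM in male vehicle, 17.3, 7.78 and 10.9 CPM in male weekly and 11.7, 11.9 and 8.62 CPM in male daily libraries. Its female levels were 8.72, 7.61 and 15.9 CPM with vehicle, 8.85, 14.3 and 13.3 CPM with weekly and 6.91, 12.3 and 10.6 CPM with daily prednisone, with no separated regimens. Hk1, the hexokinase of most tissues, was at 17.7, 18.7 and 27.1 CPM in male vehicle, 23.0, 18 and 21.2 CPM in male weekly and 22.7, 27.4 and 19.7 CPM in male daily libraries. For females Hk1 was at 23.1, 25.3 and 23.0 CPM with vehicle, 14.6, 29.9 and 20.7 CPM with weekly and 14, 22.5 and 17.6 CPM with daily prednisone, where daily lay below vehicle. Neither gene passed in any comparison by edgeR.

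The pathway was followed into 41 further genes of sugar transport, glycolytic control and glycogen handling, of which 36 were tested. With daily prednisone over both sexes 6 of the 36 rose and none fell, the 6 being Pygl, Gys2, Phka2, Tbc1d4, Slc2a12 and Ppp1r3f. Over all 13596 genes 15% were called, of which 1017 rose and 1016 fell. Pygl and Gys2, the liver forms of glycogen phosphorylase and synthase, differed by 2.32 ± 0.59 and 3.17 ± 0.88 on the log2 scale (edgeR adjusted p = 0.0171 and 0.0244). Their levels stayed low, up to 43.9 CPM for Pygl and 7.71 CPM for Gys2, and the 3 female libraries with most Adipoq held 24.0 to 43.9 CPM of Pygl and 3.15 to 7.71 CPM of Gys2. The part of adipocyte RNA in these values was not tested. Tbc1d4, which holds GLUT4 inside the cell until insulin acts, differed by 0.47 ± 0.12 (edgeR adjusted p = 0.0176). Between daily and weekly prednisone Tbc1d4, its relative Tbc1d1 and the glucose-sensing factor Mlxip were higher with daily, and none of the 36 was lower. Over all genes 8.17% were called there, 584 higher and 527 lower. None of the 36 passed with weekly prednisone against vehicle or within 1 sex with daily prednisone by edgeR.

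Between the sexes, Slc2a3, the transporter GLUT3, was lower in female than in male vehicle mice by edgeR, where 0.765% of all genes were called. Its log2 difference was -1.37 ± 0.30 (edgeR adjusted p = 0.0399). Averaged over the 3 treatments, Slc2a3, the lactate exporter Slc16a3, phosphoglucomutase 1 (Pgm1) and Tigar were lower in females and Phka2, Tbc1d4 and Ppp1r3b higher. Over all genes 7.61% were called in that comparison. Slc16a3 was at 277 to 441 CPM in the 9 male and 134 to 281 CPM in the 9 female libraries, a difference of -0.77 ± 0.12 (edgeR adjusted p = 0.00059). Pgm1, which links glycogen to glycolysis, differed by -0.40 ± 0.10 (edgeR adjusted p = 0.0237). Ppp1r3b, a phosphatase subunit of liver, was at 0.521 to 1.66 CPM in males and 1.46 to 16.3 CPM in females. All 10 adipocyte markers also had a positive value in females over the 3 treatments, with a median of 1.32 on the log2 scale. Of these 4 (Retn, Car3, Cfd and Fabp4) were called. The part of adipocyte RNA in the values of Ppp1r3b was not tested.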

How the data were processed

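The deposited file holds raw read counts per gene for all 18 libraries. Per the labels and the study's methods, the authors aligned reads with TopHat2 2.1.0 and Bowtie2 2.2.6 to mm10 and counted with HTSeq; the labels also name mm9, and the annotation release and strand setting are not given in the sources used here. Phkg1, Pfkp, Pfkfb1 and Gys1 overlap other expressed genes, so their counts are uncertain. Gene symbols came from the reference tables (42462 of 43430 identifiers matched). Exon lengths came from GENCODE vM21, in which 27 of the 35 members have the span of the deposited table.

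Genes passing edgeR's filterByExpr (minimum count 10) were normalized by TMM and tested together over the 6 groups with the edgeR 4.0.16 quasi-likelihood test in R 4.3.3, and p-values were adjusted by Benjamini-Hochberg over 13596 genes. The fit recovered known folds in data simulated from its own estimates of the spread, with independent libraries. Those folds were larger than every called difference of a member between treatments, so recovery of folds of the called size was not tested. Groups came from sample titles, and replicates are separate mice. The members and gene lists, and the tests, were chosen with earlier results of these data known. Values in every library are given for members called in any comparison, the 6 largest log2 differences per regimen over both sexes, and isoform pairs; Pfkfb3 was added after its values were seen. The results of 1 further gene of the pathway are not reported here. Alternatives were DESeq2 1.42.0, other scalings and filters, a replicate block, adipocyte or slow fiber scores (mean log2 CPM of 10 genes) as covariates, and each library left out. The correction for transcript length and GC content, the fit without the 2 libraries highest in Myh7 and the comparison of the sexes over the 3 treatments were added after seeing the data. Same-numbered female weekly and daily libraries deviated together (r = 0.501, 0.483 and 0.439), and the other same-numbered pairs had no common sign. Replicate numbers followed the sample titles, and many deposited column names carry other numbers. What the numbers mark is not stated, so the replicate block may match no feature of the design. Counts of 10506661 to 14686654 per library gave the members a median standard error of 0.21 on the log2 scale within males and 0.15 over both sexes.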

Additional observations from a re-analysis of the deposited data

How the results depend on the processing

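No member's called difference changed sign under any alternative run. The counts of members below are given without the share of all genes called under each alternative. That share can change with the setting too, so a changed count is not particular to the members. For daily prednisone in males 1 member was called, and 3 with DESeq2, 0 with the adipocyte score, 0 with the length and GC correction and 0 to 1 without 1 library. For daily prednisone in females 0 were called, and 2 with total count scaling (Hk2 and Pfkfb4) or DESeq2 (Hk2 and Ppp1r3a). Over both sexes 3 were called, and 8 with total count scaling, 7 with DESeq2, 1 with the slow fiber score, 0 with the adipocyte score, 0 with the length and GC correction, and 1 (without female daily replicate 3) to 8 (without female daily replicate 1) without 1 library. For weekly prednisone in females 0 were called, and 1 with DESeq2 and 0 to 1 without 1 library, the 1 without female weekly replicate 2. Between daily and weekly prednisone 4 were called, and 7 with total count scaling or DESeq2, 1 with the length and GC correction, and 2 (without female daily replicate 3) to 5 (without female daily replicate 1) without 1 library. Between vehicle females and males 1 was called, and 2 (Fbp2 and Hk2) with DESeq2 or the slow fiber score. Over the 3 treatments 5 were called, and 2 with total count scaling and 4 to 7 without 1 library, the 7 without female weekly replicate 1. Weekly males, weekly prednisone over both sexes and both sex differences in response stayed at 0 members in every alternative.

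With the replicate block, the daily comparison over both sexes called 2 members in place of 3, Hk2 being lost at an edgeR adjusted p of 0.0503, and the block changed no other member's call. The causes of these changes were not tested, and the adipocyte score cannot be separated from treatment in the comparisons with vehicle. With 3 mice per group, the median standard error within males was 0.21 on the log2 scale, and differences well above it also went without a call. In daily males Eno3 at -0.60 ± 0.22 and Pfkfb3 at 1.065 ± 0.43 did not pass, while Pgam2 at -0.91 ± 0.21 did. A member without a call may therefore still differ.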
